A study of Mus musculus with 6 samples.

Results

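A group of 54 genes that act in mitosis, from chromosome condensation and spindle assembly to the final separation of the daughter cells, was followed in RNA-seq libraries of mouse dermal fibroblasts with and without stabilized β-catenin. The members were listed by name for roles in mitosis, with earlier results of these data known. They are 54 of the 41126 genes of the table of all genes, and all 54 were among the 15462 genes that passed a filter on low counts and were tested. The series compared 3 control and 3 gain-of-function (GOF) cultures of primary fibroblasts from ventral skin at postnatal day 4, on a CD1, C57Bl6 background, grown in medium with 10% fetal bovine serum. Control cultures received Adenovirus-GFP (AdGFP), with a genotype labelled as +/+, whereas GOF cultures received Adenovirus-Cre (AdCre) and carry Ctnnb1 without exon 3 on one allele, which leaves a β-catenin protein that escapes degradation. The virus was applied for 6 h in medium without serum, and the study sequenced RNA of cells taken days after infection rather than at the end of this exposure. The labels give AdCre at 366 to 500 MOI for every culture even though their source field names AdGFP for the controls. The methods of the study describe the same transgenic line as the source of both groups. They give 366 to 500 MOI for AdCre and 366 MOI for AdGFP, so the dose may have differed as well. Virus and β-catenin thus changed together between the groups, and their effects cannot be told apart. Cells of each animal were cultured separately, and the 6 libraries came from 4 animals. Control replicate 0 and GOF replicate 2 share an animal, as do Control replicate 2 and GOF replicate 0, so 2 animals stand in both groups.

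Mitosis is driven by cyclin-dependent kinase 1 bound to A- and B-type cyclins. Condensins compact the chromosomes, kinetochores built on the centromere attach them to spindle microtubules, a checkpoint delays anaphase until all are attached, and the anaphase-promoting complex then destroys cyclin B and securin so that sister chromatids part. Transcripts of most of these genes accumulate late in the cell cycle and are scarce in cells that have stopped dividing, so their level in a culture is widely read as a sign of proliferation. In RNA from whole cultures, fewer dividing cells and less RNA per dividing cell cannot be told apart.

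Of the 54 mitosis genes, 34 were lower in GOF libraries by a fold change over 2 at an adjusted p under 0.05 (edgeR quasi-likelihood test, Benjamini-Hochberg adjustment over all genes tested), against 5.64% of all genes tested. None was called higher (count 0, against 6.69% of all genes), none was higher at an unadjusted p under 0.05, and DESeq2 also called 0. At an adjusted p under 0.05 with no limit on the fold change, 42 were lower, against 10.2% of all genes, and 0 were higher, against 11.1%. The FPKM of every GOF library lay below that of every control library for 48 members, against 19.2% of all genes tested, and above it for 0, against 20.3%. The fitted log2 fold change was below 0 for 52 members, against 51.5% of all genes. Its median over the members was -1.14, where the median of all genes tested was -0.02, and it ran from -1.84 for Ccnb2 to 0.19 for Bub3. With limma on log2(FPKM + 1), a scale that understates changes of low genes, 18 members passed both thresholds.

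**Figure D1:**
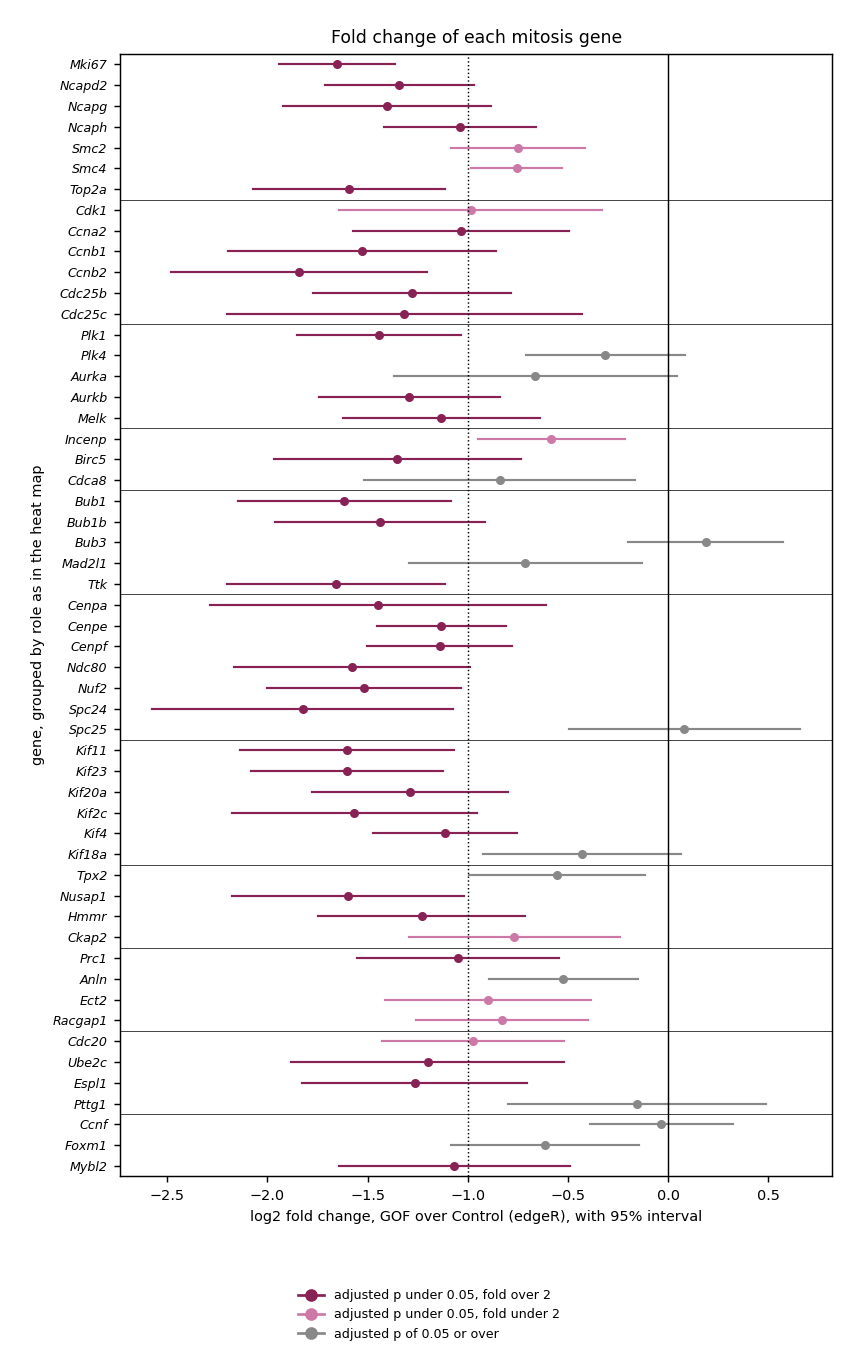
Log2 fold change of each of the 54 mitosis genes (horizontal axis, GOF over control, edgeR) with its 95% interval, grouped by role on the vertical axis, and a dotted line at -1. The points run from -1.84 for Ccnb2 to 0.19 for Bub3, and 52 of them lie left of 0.

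The promoters of several members are shown first, since genes expressed in mitosis are known to share certain elements near their start site. The cell cycle gene homology region (CHR) is bound by the DREAM complex, which represses these genes in resting cells, and by the B-Myb complex, which activates them before mitosis, and the CCAAT box is bound by the activator NF-Y. RefSeq promoter windows (GRCm38.p6, 250 bases before to 50 after the start site) were at hand for 45 of the 54 members, the others being Smc4, Ccna2, Cdc25c, Aurkb, Incenp, Spc24, Kif20a, Tpx2 and Foxm1. Stretches before the start site and outside annotated exons are given for 6 members that fell and for Ccnf, whose groups overlapped, with matches to a CHR (TTTGAA or TTCGAA) and to an NF-Y box (CCAAT) on either strand in capitals. Matches left out include a CHR at bases 5 to 10 (Ccnb2), -15 to -10 (Cdk1) and -14 to -9 (Ccnf) from the start site. An NF-Y box at -8 to -4 (Cdc20) is left out as well. The stretches are thus only parts of the windows. They lie at chr7:135716459-135716579 (Mki67, minus strand), chr11:99024190-99024424 (Top2a, minus strand), chr9:70421555-70421729 (Ccnb2, minus strand), chr10:69352939-69353002 (Cdk1, minus strand), chr19:37376321-37376381 (Kif11, plus strand), chr4:118437353-118437404 (Cdc20, minus strand) and chr17:24251485-24251559 (Ccnf, minus strand).
Mki67: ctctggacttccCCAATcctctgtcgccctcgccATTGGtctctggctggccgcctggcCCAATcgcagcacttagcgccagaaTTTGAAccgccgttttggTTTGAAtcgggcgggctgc
Top2a: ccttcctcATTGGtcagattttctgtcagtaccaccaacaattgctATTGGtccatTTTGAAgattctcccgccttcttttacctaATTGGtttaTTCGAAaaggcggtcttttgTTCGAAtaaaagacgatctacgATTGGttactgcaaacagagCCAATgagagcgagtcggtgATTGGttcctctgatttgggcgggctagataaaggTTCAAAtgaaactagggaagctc
Ccnb2: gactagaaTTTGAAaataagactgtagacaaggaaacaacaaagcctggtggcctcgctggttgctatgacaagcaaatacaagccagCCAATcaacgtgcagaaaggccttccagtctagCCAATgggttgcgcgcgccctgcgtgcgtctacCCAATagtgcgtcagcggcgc
Cdk1: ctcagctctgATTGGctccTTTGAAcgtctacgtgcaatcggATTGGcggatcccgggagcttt
Kif11: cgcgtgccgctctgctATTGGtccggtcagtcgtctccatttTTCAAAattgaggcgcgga
Cdc20: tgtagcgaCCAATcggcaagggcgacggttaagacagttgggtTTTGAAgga
Ccnf: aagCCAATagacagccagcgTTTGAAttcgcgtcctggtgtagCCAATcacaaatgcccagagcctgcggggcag

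A CHR match stood in the window of 33 of the 45 members (73.3%), compared with 21.7% of the 27025 genes with a window. An NF-Y box match stood in 32 of them (71.1%, against 41.1%), and both in one window in 30 (66.7%, against 8.61%). The E2F motif was searched on both strands as any of several spellings, namely TTGGCGC, the spelling TTCCCGC, the spelling TTCGCGC or the spelling TTGCCGC. At least one was found in 10 members (22.2%, against 10.9%). The TCF/LEF motif, through which β-catenin acts on DNA, was searched on both strands as CTTTGAA, or else the spelling CTTTGAT, the spelling CTTTGTA or the spelling CTTTGTT. At least one of these spellings was found in 7 members (15.6%, against 18.9%), and the first of them contains the CHR letters. Matches to both the CHR and the NF-Y box were present in 19 of the 29 called members with a window (65.5%), and in 4 of the 6 members whose groups overlapped (66.7%), namely Bub3, Ccnf, Spc25 and Aurka. These shares are descriptions with no test, and a match of letters is not evidence of binding.

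**Figure D2:**
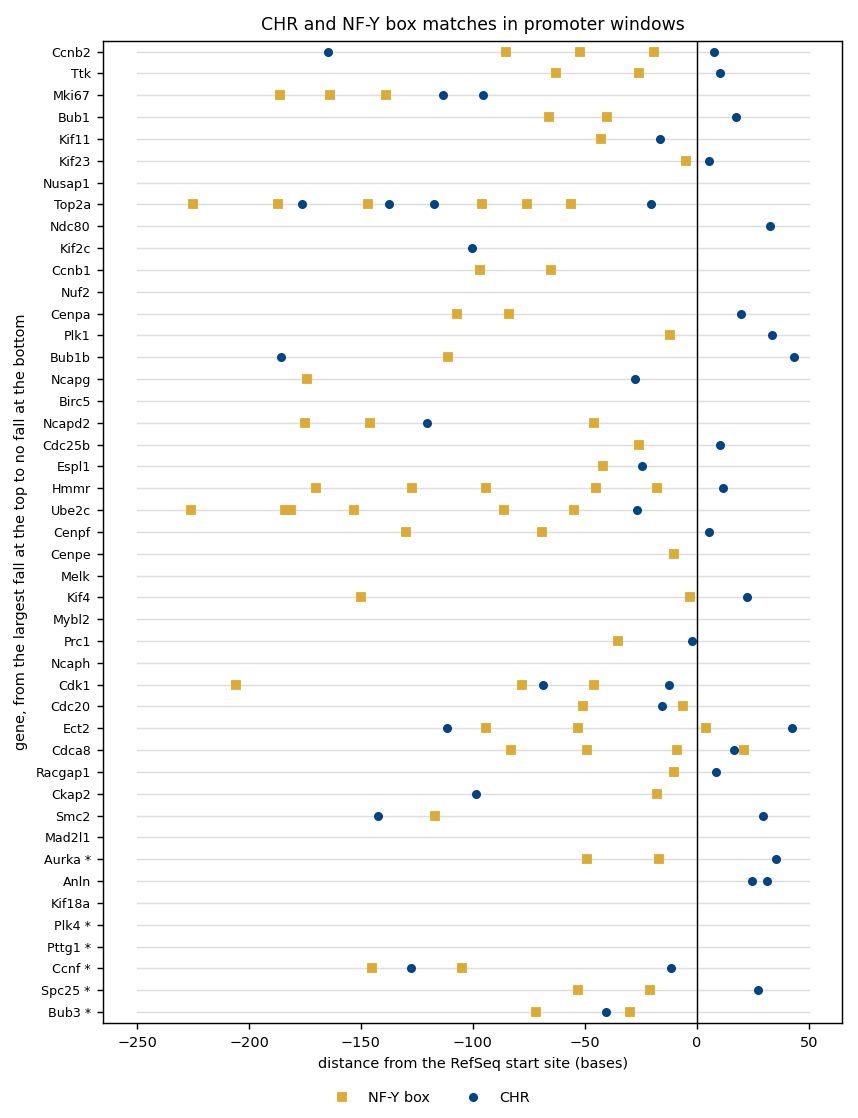
Distance of each CHR match (circles) and NF-Y box match (squares) from the RefSeq start site in bases (horizontal axis) for the 45 mitosis genes with a promoter window, ordered from the largest fall in GOF libraries at the top. Asterisks mark the 6 genes whose groups overlapped in FPKM, of which 4 carry both motifs.

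Before the genes are taken by role, the libraries themselves need a description. They held 35980831 to 42834467 fragments each. Axin2, a feedback gene of Wnt signaling that checks the labels, lay at 0.144, 0.136 and 0.177 FPKM (fragments scaled by transcript length and sequencing depth) in Control replicates 0, 1 and 2 and at 19.2, 14.4 and 18.7 FPKM in GOF replicates 0, 1 and 2, and the log2 fold change was 6.98 (edgeR adjusted p = 4.95e-05). Ctnnb1 as a whole gene had a log2 fold change of -0.05 (edgeR adjusted p = 0.844). The 54 mitosis genes together took 0.212% of all fragments in Control replicate 0 and 0.154% in each of Control replicates 1 and 2, against 0.0851%, 0.0941% and 0.0860% in GOF replicates 0, 1 and 2. Control replicate 0 thus stood above the other controls. It was the highest control in FPKM for 47 of the 54 members, with a median of 127% of the control mean, where Control replicates 1 and 2 had 85.3% and 85.6%. The GOF libraries lay close together, with medians of 47.6%, 46.6% and 44.4% of the control mean. Without Control replicate 0 the median log2 fold change of the members was -0.93, and 24 rather than 34 passed both thresholds, while 40 had an adjusted p under 0.05. The coefficient of variation between replicates had a median of 24.4% over the members in control and 11.6% in GOF libraries, compared with 16.5% and 15.4% over all genes tested.

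**Figure D3:**
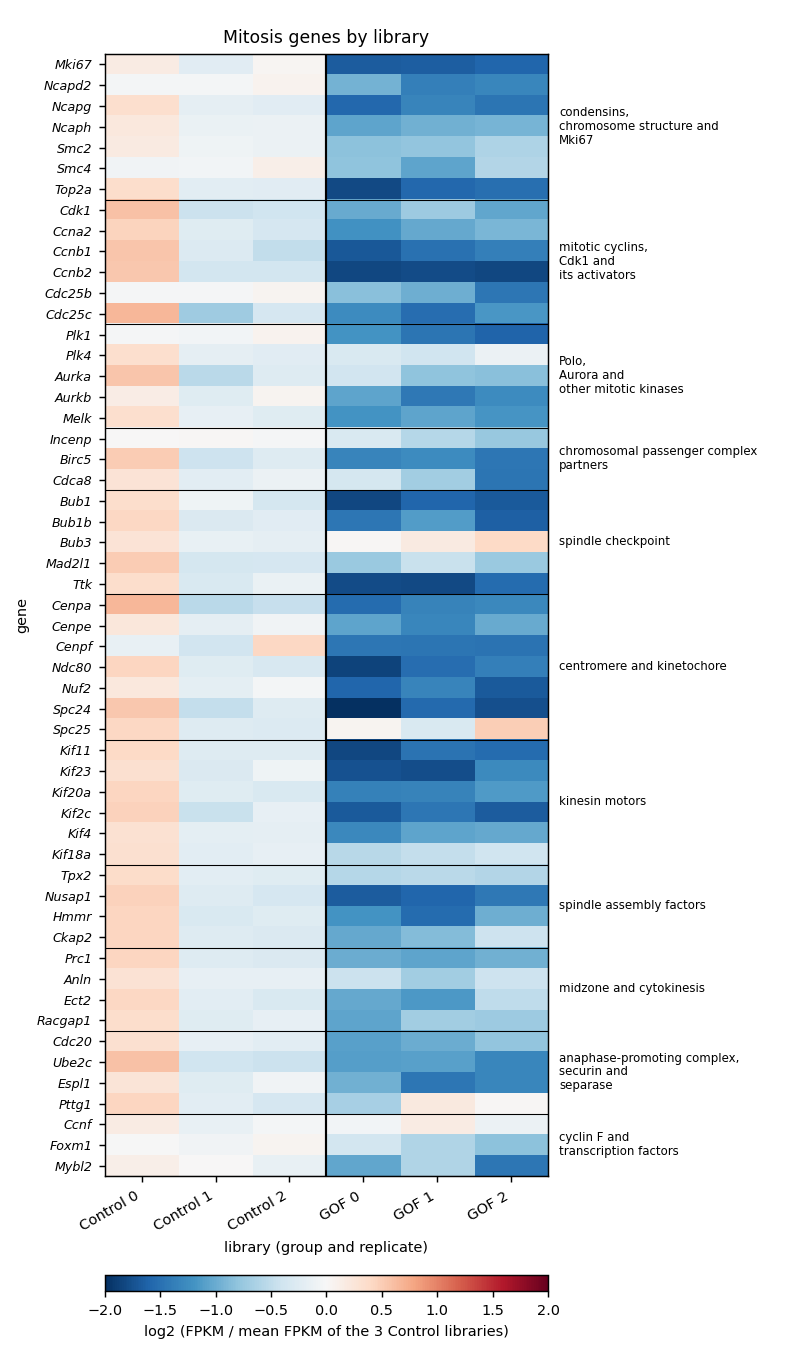
Heat map of log2(FPKM divided by the mean FPKM of the 3 control libraries) for the 54 mitosis genes (rows, grouped by role) in the 6 libraries (columns). Control replicate 0 is the highest control for 47 genes, and the GOF columns lie below 0 for most rows, Bub3, Spc25, Pttg1 and Ccnf being among the exceptions. Values below -2 take the darkest blue.

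The difference was also present within each of the animals that gave cultures to both groups. From Control replicate 2 to GOF replicate 0, 52 of the 54 members were lower in FPKM, with a median log2 ratio of -0.94. From Control replicate 0 to GOF replicate 2, 52 were lower with a median of -1.41, and these were the same 52 genes. Each is a comparison of single libraries and has no test. Bub3 and Spc25 were the exceptions in both animals.

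Levels of the members differed widely, and FPKM is scaled by transcript length so that genes can be compared. Bub3 and Cdk1 were the most abundant in control libraries, at 45.7 ± 8.27 and 39.8 ± 17.3 FPKM (SD, n = 3 each), and these do not differ beyond their spread. Top2a followed with 27.9 ± 6.77 FPKM and Smc4 with 25.4 ± 1.94 FPKM (SD, n = 3 each). Espl1 and Mybl2 were the least abundant, at 0.753 ± 0.133 and 0.881 ± 0.0791 FPKM (SD, n = 3 each). The fitted fold change had a Spearman correlation of 0.27 with the mean level across the 54 genes, which share libraries and are not independent, so it is given as a description.

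Genes of chromosome structure all fell in GOF libraries. The 7 members had adjusted p-values under 0.05 (edgeR) and a median log2 fold change of -1.34, and 5 passed both thresholds. Mki67 encodes the Ki-67 protein that coats mitotic chromosomes and marks dividing cells. Its FPKM was 6.89, 5.27 and 6.30 in Control replicates 0, 1 and 2 and 1.94, 1.97 and 2.05 in the GOF libraries. The GOF values were almost equal and lay far below the lowest control, with a log2 fold change of -1.65 (standard error, SE, 0.12, edgeR adjusted p = 2.98e-04). Top2a, the topoisomerase that untangles sister chromatids, lay at 35.7, 24.2 and 23.9 FPKM in control and at 7.98, 9.42 and 9.86 FPKM in GOF libraries, and the log2 fold change was -1.59 (SE 0.21, adjusted p = 0.00223). Control replicate 0 was the highest library for both genes, and neither call depended on it. Among the condensins, Ncapd2, a non-SMC subunit of condensin I, was even across controls in FPKM, at 9.73, 9.72 and 10.5 FPKM, and had 5.21, 3.86 and 4.05 FPKM in GOF libraries (log2 fold change -1.34, SE 0.16, adjusted p = 0.00165). Its fragments in Control replicates 0, 1 and 2 were less even, at 884, 1375 and 1337. The ATPase subunits that both condensins share fell less. Smc4 had 24.2, 24.5 and 27.7 FPKM in control and 14.6, 12.2 and 17.0 FPKM in GOF libraries, and the log2 fold change was -0.76 (SE 0.10, adjusted p = 0.00227). Smc2 had 12, 9.89 and 9.68 FPKM in control and 5.96, 6.09 and 6.81 FPKM in GOF libraries, and the log2 fold change was -0.75 (SE 0.14, adjusted p = 0.0102). Both were below every control in every GOF library without reaching a fold change of 2. Ncapg and Ncaph, the other condensin I subunits, fell by 1.40 and 1.04 on the log2 scale (adjusted p at most 0.00503 from edgeR), and Ncaph was under a fold change of 2 without Control replicate 0 (log2 fold change -0.91) and without GOF replicate 0 (-0.99).

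Mitotic cyclins, their kinase and its activating phosphatases were lower as a whole, with 6 of 6 at an adjusted p under 0.05, 5 of them past both thresholds, and a median log2 fold change of -1.30. Ccnb2, a B-type cyclin, had the largest fitted fall of the 54. Its control libraries held 17.2, 9.17 and 9.17 FPKM and its GOF libraries 3.34, 3.43 and 3.35 FPKM, and the log2 fold change was -1.84 (SE 0.28, edgeR adjusted p = 0.00387). Ccnb1, the other B-type cyclin, lay at 24.6, 13.9 and 11.9 FPKM in control and 5.18, 5.95 and 6.48 FPKM in GOF libraries, and the log2 fold change was -1.53 (SE 0.29, adjusted p = 0.00951). In both, Control replicate 0 was far above the other controls, and the lowest control still exceeded every GOF library. Ccna2, the cyclin of S phase and mitotic entry, had 23.0, 14.2 and 13.3 FPKM against 7.25, 8.28 and 8.92 FPKM (log2 fold change -1.04, edgeR adjusted p = 0.0186). Cdk1, their kinase partner, lay at 59.8, 29.6 and 30.1 FPKM in control and 19.8, 23.9 and 19.4 FPKM in GOF libraries. It fell by 0.99 on the log2 scale (SE 0.28, edgeR adjusted p = 0.0439), just short of a fold change of 2. Cdc25b, a phosphatase that removes the inhibitory phosphates from Cdk1, was steady in control at 2.72, 2.73 and 2.88 FPKM and had 1.56, 1.42 and 1.02 FPKM in GOF libraries (log2 fold change -1.28, adjusted p = 0.00590). Its relative Cdc25c had 2.94, 1.13 and 1.47 FPKM against 0.776, 0.642 and 0.821 FPKM (log2 fold change -1.32, adjusted p = 0.0456). Cdc25c is the less firm of these phosphatases, with an adjusted p close to the threshold. Its Control replicate 0 also lay far above the other controls.

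Several of these genes lost significance, or a fold change over 2, when a single library was left out. The adjusted p of Cdc25c was 0.0593 without Control replicate 0, 0.0630 without Control replicate 2, and 0.125, 0.129 and 0.0842 without GOF replicates 0, 1 and 2 (edgeR). For Cdk1 it was 0.144, 0.0779 and 0.107 without GOF replicates 0, 1 and 2. Without Control replicate 0 the log2 fold change was -0.58 for Cdk1 and -0.80 for Cdc25c. Ccna2 had 0.0834 without GOF replicate 0 and 0.0511 without GOF replicate 1, and its fold change was under 2 without Control replicate 0 (log2 fold change -0.73). Ccnb1 had 0.0515 without GOF replicate 0.

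Polo, Aurora and related kinases, which drive centrosome and spindle assembly, held 3 members past both thresholds and 2 whose groups overlapped, with a median log2 fold change of -1.13. Plk1, the Polo-like kinase of mitotic entry, had 3.67, 3.60 and 3.93 FPKM in control and 1.63, 1.36 and 1.23 FPKM in GOF libraries, and the log2 fold change was -1.44 (SE 0.18, edgeR adjusted p = 0.00176). Control libraries were even here, with a gap to GOF many times the spread within either group. Plk4, the kinase that starts centriole duplication, had 8.49, 5.89 and 5.70 FPKM in control and 5.39, 5.10 and 6.14 FPKM in GOF libraries. Its groups overlapped, since GOF replicate 2 lay above Control replicates 1 and 2, and the log2 fold change was -0.31 (95% interval -0.71 to 0.08, edgeR adjusted p = 0.237). Aurkb, the Aurora kinase of the chromosomal passenger complex, had 4.89, 3.73 and 4.58 FPKM against 2.11, 1.63 and 1.85 FPKM (log2 fold change -1.29, SE 0.19, adjusted p = 0.00399). Aurka, the Aurora kinase of the spindle poles, lay at 8.58, 3.99 and 4.87 FPKM in control and 4.48, 3.32 and 3.27 FPKM in GOF libraries. GOF replicate 0 exceeded Control replicate 1, so its groups overlapped as well, with a log2 fold change of -0.66 (95% interval -1.37 to 0.05, edgeR adjusted p = 0.167). Melk, a kinase abundant in dividing progenitor cells, had 3.82, 2.72 and 2.56 FPKM against 1.32, 1.45 and 1.34 FPKM (log2 fold change -1.13, adjusted p = 0.00932), and -0.92 without Control replicate 0.

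Partners of Aurkb in the chromosomal passenger complex, which corrects faulty attachments and later directs cytokinesis, were all lower in each GOF library than in any control, but to unlike degrees. Birc5 (survivin) had 16.1, 8.54 and 9.48 FPKM in control and 4.57, 4.75 and 4.20 FPKM in GOF libraries, and the log2 fold change was -1.35 (SE 0.27, edgeR adjusted p = 0.0112, and 0.0502 without GOF replicate 0). Incenp, the scaffold of the complex, was even in control at 3.76, 3.82 and 3.69 FPKM and had 3.05, 2.53 and 2.22 FPKM in GOF libraries (log2 fold change -0.58, SE 0.16, adjusted p = 0.0367). That of Incenp was 0.144 and 0.0793 without Control replicates 1 and 2, and 0.0984 and 0.0862 without GOF replicates 1 and 2. Cdca8 (borealin) had 4.45, 3.18 and 3.38 FPKM against 2.88, 2.27 and 1.33 FPKM and did not pass (log2 fold change -0.84, adjusted p = 0.0799).

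**Figure D4:**
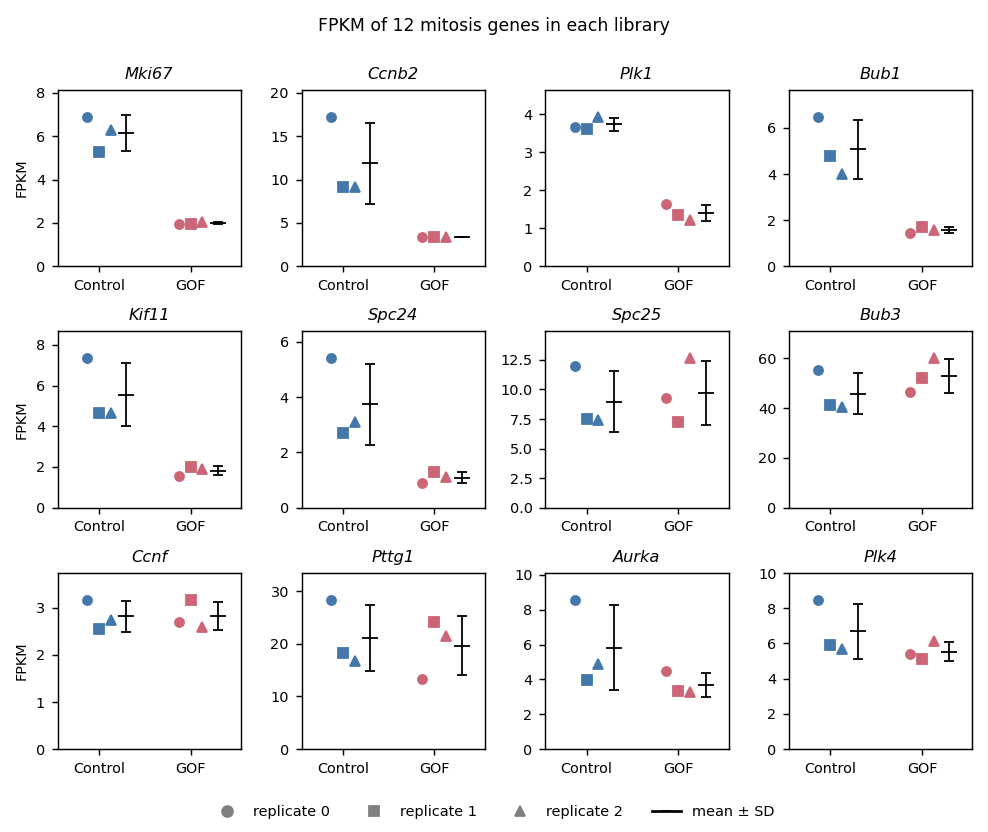
FPKM of 12 mitosis genes in each library (points, one symbol per replicate number) with the mean and SD of 3 libraries per group, on linear axes from 0. Mki67, Ccnb2, Plk1, Bub1, Kif11 and Spc24 show no overlap between the groups, whereas Spc25, Bub3, Ccnf, Pttg1, Aurka and Plk4 do.

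Of the 5 spindle checkpoint genes, 3 passed both thresholds, and the median log2 fold change was -1.44. Bub1, a checkpoint kinase that sits on unattached kinetochores, had 6.49, 4.77 and 3.99 FPKM in control and 1.43, 1.69 and 1.59 FPKM in GOF libraries, and the log2 fold change was -1.62 (SE 0.23, edgeR adjusted p = 0.00317). Its relative Bub1b, which encodes the inhibitor BubR1, had 7.44, 4.57 and 4.76 FPKM against 2.05, 2.56 and 1.79 FPKM (log2 fold change -1.44, adjusted p = 0.00481). Ttk, the Mps1 kinase at the top of the checkpoint, had 2.92, 1.85 and 2.09 FPKM against 0.662, 0.658 and 0.787 FPKM (log2 fold change -1.66, adjusted p = 0.00317). In these 3 genes no GOF library came near the lowest control. Bub3, the adaptor that binds both Bub1 and BubR1, was the most abundant of the 54 and its fitted value was above 0. It had 55.2, 41.4 and 40.5 FPKM in control and 46.6, 51.9 and 60.0 FPKM in GOF libraries, so the groups overlapped, with a log2 fold change of 0.19 (95% interval -0.20 to 0.57, edgeR adjusted p = 0.464). Mad2l1, which encodes the MAD2 protein that blocks Cdc20, lay at 15.0, 8.18 and 8.25 FPKM in control and 6.27, 7.66 and 6.24 FPKM in GOF libraries. The groups did not overlap, but Control replicates 1 and 2 were close to GOF replicate 1, and the log2 fold change of -0.71 did not pass (adjusted p = 0.0843).

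Centromere and kinetochore genes had the lowest median of any role, at -1.45, with 6 of 7 past both thresholds. Cenpe, a kinesin that carries chromosomes to the metaphase plate, had 3.79, 2.87 and 3.08 FPKM in control and 1.57, 1.32 and 1.61 FPKM in GOF libraries (log2 fold change -1.13, edgeR adjusted p = 0.00180). Cenpf, a large protein of the outer kinetochore, had 2.12, 1.80 and 3.12 FPKM against 0.860, 0.856 and 0.841 FPKM (log2 fold change -1.14, adjusted p = 0.00276), and was one of 6 members with Control replicate 2 the highest control. Cenpa, the histone H3 variant that marks centromeres, had a control mean of 15.7 ± 7.92 FPKM and a GOF mean of 6.01 ± 0.533 FPKM (SD, n = 3 each). It fell by 1.45 on the log2 scale (edgeR adjusted p = 0.0274), and its adjusted p was 0.104, 0.0846 and 0.0574 without GOF replicates 0, 1 and 2. Without Control replicate 0, which held 24.8 FPKM, the log2 fold change of Cenpa was -0.89.

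The NDC80 complex, the rod of 4 proteins that grips microtubules, showed unequal change among its subunits. Ndc80 had 5.94, 3.71 and 3.52 FPKM in control and 1.21, 1.52 and 1.70 FPKM in GOF libraries, and the log2 fold change was -1.58 (SE 0.25, edgeR adjusted p = 0.00524). Nuf2 had 5.27, 4.0 and 4.46 FPKM against 1.53, 1.84 and 1.42 FPKM (log2 fold change -1.52, SE 0.21, adjusted p = 0.00278). Spc24 had 5.41, 2.69 and 3.12 FPKM against 0.884, 1.28 and 1.11 FPKM (log2 fold change -1.82, SE 0.32, adjusted p = 0.00759). These 3 subunits were lower in each GOF library than in any control. Spc25, the partner that pairs with Spc24, lay at 12, 7.51 and 7.42 FPKM in control and 9.27, 7.29 and 12.6 FPKM in GOF libraries. GOF replicate 2 was the highest of its 6 libraries and GOF replicate 1 the lowest, and the log2 fold change was 0.08 (95% interval -0.50 to 0.66, edgeR adjusted p = 0.848).

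Kinesin motors had all GOF libraries below all controls for 6 of 6 genes, with a median log2 fold change of -1.43. Kif11 (Eg5), which pushes the spindle poles apart, had 7.34, 4.66 and 4.66 FPKM in control and 1.57, 2.0 and 1.91 FPKM in GOF libraries (log2 fold change -1.60, SE 0.23, edgeR adjusted p = 0.00338). Kif23, the motor of the centralspindlin complex, had 4.11, 2.69 and 3.11 FPKM against 0.986, 0.969 and 1.37 FPKM (log2 fold change -1.60, SE 0.21, adjusted p = 0.00222). Kif20a, a motor of the central spindle, had 14.3, 9.02 and 8.56 FPKM against 4.17, 4.23 and 4.84 FPKM (log2 fold change -1.29, adjusted p = 0.00554). In all 3 the highest GOF library stayed well below the lowest control. Kif4, a chromosome-bound motor, had 4.83, 3.40 and 3.46 FPKM against 1.60, 1.87 and 1.91 FPKM (log2 fold change -1.11, adjusted p = 0.00291), and -0.98 without Control replicate 0. Kif2c, which takes microtubules apart at centromeres, fell by 1.57 on the log2 scale (edgeR adjusted p = 0.00615). Kif18a, which damps chromosome movements at metaphase, had a fitted value of -0.43 that did not pass (adjusted p = 0.196).

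Among spindle assembly factors, Nusap1, which bundles microtubules near chromosomes, had 6.84, 4.15 and 3.95 FPKM in control and 1.58, 1.65 and 1.84 FPKM in GOF libraries (log2 fold change -1.60, SE 0.25, edgeR adjusted p = 0.00462). Hmmr, a hyaluronan receptor that also acts at spindle poles, had 10.0, 6.01 and 6.26 FPKM against 3.25, 2.56 and 3.77 FPKM (log2 fold change -1.23, adjusted p = 0.00819). Without Control replicate 0, Hmmr was under a fold change of 2 (log2 fold change -0.94). Ckap2, a stabilizer of spindle microtubules, had 20.5, 12.7 and 12.4 FPKM against 7.46, 8.38 and 11.4 FPKM, with GOF replicate 2 close to the lower controls. Its log2 fold change of -0.77 passed narrowly (edgeR adjusted p = 0.0490), and the adjusted p was 0.0606 and 0.0702 without Control replicates 0 and 1 and 0.164, 0.113 and 0.0626 without GOF replicates 0, 1 and 2. Without Control replicate 0 its log2 fold change was -0.50. Tpx2, the activator of Aurka on the spindle, had 14.9, 10.1 and 9.88 FPKM against 7.86, 8.04 and 7.76 FPKM, and its log2 fold change of -0.55 did not pass (edgeR adjusted p = 0.0774).

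Midzone and cytokinesis genes fell by less, with a median log2 fold change of -0.86 and only Prc1 past both thresholds. Prc1, which cross-links the microtubules of the midzone, had 21.9, 13.6 and 13.3 FPKM in control and 8.21, 7.80 and 8.32 FPKM in GOF libraries (log2 fold change -1.05, SE 0.22, edgeR adjusted p = 0.0134, and 0.0563 without GOF replicate 0). The fold change of Prc1 was under 2 without Control replicate 0 (log2 fold change -0.77) and without GOF replicate 2 (-0.98). Ect2, the exchange factor that switches on RhoA at the cell equator, had 6.65, 4.29 and 4.03 FPKM against 2.45, 2.24 and 3.5 FPKM (log2 fold change -0.90, adjusted p = 0.0263, 0.10 without GOF replicate 0 and 0.0861 without GOF replicate 1). Racgap1, the partner of Kif23 in centralspindlin, had 11.6, 7.72 and 8.14 FPKM against 4.41, 5.63 and 5.53 FPKM (log2 fold change -0.83, adjusted p = 0.0184, and 0.0796 without GOF replicate 0). Anln, a scaffold of the contractile ring, had 11.4, 8.30 and 8.36 FPKM against 6.97, 5.76 and 6.98 FPKM and just missed the threshold (log2 fold change -0.52, adjusted p = 0.0549). All of these genes were below every control in every GOF library.

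Of the 4 genes of anaphase onset, 2 passed both thresholds and 3 an adjusted p under 0.05. Espl1 encodes separase, the protease that cuts cohesin, and had 0.900, 0.640 and 0.720 FPKM in control and 0.386, 0.275 and 0.304 FPKM in GOF libraries (log2 fold change -1.27, SE 0.24, edgeR adjusted p = 0.0101). Ube2c, the ubiquitin-conjugating enzyme of the anaphase-promoting complex, had 27.6, 13.9 and 13.6 FPKM against 8.52, 8.68 and 7.44 FPKM (log2 fold change -1.20, adjusted p = 0.0257). Its adjusted p was 0.0869, 0.0737 and 0.0662 without GOF replicates 0, 1 and 2, and its log2 fold change was -0.78 without Control replicate 0. Cdc20, the activator of that complex and the target of the checkpoint, had 13.6, 9.75 and 9.41 FPKM against 5.15, 5.47 and 6.32 FPKM (log2 fold change -0.98, adjusted p = 0.0120, and 0.0587 without GOF replicate 0). Pttg1 encodes securin, the inhibitor of separase. It lay at 28.4, 18.3 and 16.7 FPKM in control and 13.4, 24.1 and 21.5 FPKM in GOF libraries, with GOF replicates 1 and 2 above Control replicates 1 and 2. The log2 fold change of Pttg1 was -0.16 (95% interval -0.80 to 0.49, edgeR adjusted p = 0.731).

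Cyclin F and the transcription factors of mitotic genes formed the role with the smallest shift, at a median log2 fold change of -0.61. Mybl2 encodes B-Myb, which activates genes with a CHR. It had 0.956, 0.889 and 0.799 FPKM in control and 0.427, 0.579 and 0.324 FPKM in GOF libraries, and the log2 fold change was -1.07 (SE 0.25, edgeR adjusted p = 0.0217). The adjusted p of Mybl2 was 0.0849 without Control replicate 1 and 0.0552, 0.0536 and 0.0508 without GOF replicates 0, 1 and 2, and its log2 fold change was -0.94 without GOF replicate 2. It was -0.98 without Control replicate 0. Foxm1, a forkhead factor that acts with B-Myb, had 2.02, 1.93 and 2.11 FPKM against 1.56, 1.33 and 1.14 FPKM, without overlap, and did not pass (log2 fold change -0.61, adjusted p = 0.0679). Ccnf, a cyclin that recruits substrates to a ubiquitin ligase rather than activating a kinase, had 3.17, 2.54 and 2.74 FPKM in control and 2.70, 3.16 and 2.60 FPKM in GOF libraries. Both groups of Ccnf averaged 2.82 FPKM, and the log2 fold change was -0.03 (95% interval -0.39 to 0.32, edgeR adjusted p = 0.902). That interval does not reach a fold change of 2 in either direction. The promoter stretch of Ccnf printed above holds both kinds of motif, as do those of Mki67 and Cdk1.

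The members can thus be sorted into 34 that passed both thresholds, 8 that fell at an adjusted p under 0.05 by less than a fold change of 2 (Smc2, Smc4, Cdk1, Incenp, Ckap2, Ect2, Racgap1 and Cdc20), 6 that did not pass in edgeR although their groups did not overlap (Cdca8, Mad2l1, Kif18a, Tpx2, Anln and Foxm1), and 6 whose groups overlapped (Plk4, Aurka, Bub3, Spc25, Pttg1 and Ccnf). With DESeq2, 47 members in place of 42 were lower at an adjusted p under 0.05, among them Cdca8 (adjusted p = 0.0330), Mad2l1 (0.0425), Tpx2 (0.0466), Anln (0.0271) and Foxm1 (0.0307), and Kif18a did not pass. The exact permutation test on FPKM gave each of the 48 members without overlap a two-sided p of 0.1, the smallest that 3 against 3 libraries allow.

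Whether relatives or partners changed by different amounts was compared through the log2 ratio of their FPKM within each library, over 10 pairs. The ratio of Bub1 to Bub3 moved furthest. It was -3.09, -3.12 and -3.34 in Control replicates 0, 1 and 2 and -5.02, -4.94 and -5.24 in the GOF libraries, a difference of -1.88. Plk1 against Plk4 differed by -1.17 and Kif23 against Racgap1 by -0.77, in each case with the lower ratio in GOF libraries. The ratio of Incenp to Birc5 differed by 0.74, that of Aurka to Aurkb by 0.65 and that of Ccnb1 to Ccnb2 by 0.30. In these 6 pairs the ratios of the groups did not overlap (exact permutation test, two-sided p = 0.1, 0.167 after Benjamini-Hochberg adjustment over the 10 pairs), and the design cannot give a smaller p, so none passed. The other 4 pairs overlapped. The difference was -0.30 for Bub1 against Bub1b and 0.19 for Ndc80 against Spc24 (exact permutation p = 0.3 each), 0.11 for Cdc25b against Cdc25c (exact permutation p = 0.8) and 0.07 for Smc2 against Smc4 (exact permutation p = 0.7).

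Other genes of the same pathways were taken from lists by function. Of 68 other mitosis genes, 37 were called lower and 0 higher (5.64% and 6.69% of all genes tested), with a median log2 fold change of -1.07. At an adjusted p under 0.05 there were 44 lower and 1 higher (10.2% and 11.1% of all genes), and 3 were higher at an unadjusted p under 0.05. DESeq2 called 38 lower and 1 higher. Aspm, a spindle pole protein, had a mean of 2.54 ± 0.381 FPKM in control and 0.850 ± 0.0720 FPKM in GOF libraries (SD, n = 3 each), and the log2 fold change was -1.63 (edgeR adjusted p = 9.62e-04). Kntc1, which helps bring checkpoint proteins to kinetochores, and Fbxo5, an inhibitor of the anaphase-promoting complex, fell by 1.5 and 1.61 on the log2 scale (adjusted p at most 0.00147). The gene that rose at an adjusted p under 0.05, named after its value was seen, was Cenpt, an inner kinetochore protein, with 4.62, 4.72 and 4.87 FPKM in control and 7.39, 6.77 and 7.45 FPKM in GOF libraries (log2 fold change 0.57, edgeR adjusted p = 0.0247). Its rise was under a fold change of 2. Gtse1, also named after its value was seen, had the largest fitted rise of the list. Its groups overlapped and it did not pass (log2 fold change 1.13, edgeR adjusted p = 0.0755). Leaving out Control replicate 0 or GOF replicate 0 brought the count of 37 to 24 in either case, and limma on log2(FPKM + 1) brought it to 4.

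Replication genes act in S phase, before mitosis. Of 20 such genes, 4 were called lower and 0 higher (5.64% and 6.69% of all genes tested), 8 were lower at an adjusted p under 0.05 (10.2% of all genes), and the median log2 fold change was -0.56. The fitted value was below 0 for 20 of 20, compared with 51.5% of all genes, and 14 had every GOF library under every control, compared with 19.2%. Of the 4 called, those with the smallest adjusted p were Mcm10 (log2 fold change -1.17) and Cdc6 (-1.66), both needed to load or start replication forks, and Prim1 (-1.21), a primase subunit (adjusted p at most 0.0139, edgeR).

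A further 3 short lists held 0 called genes, but at 5.64% lower and 6.69% higher among all genes, lists of their size would hold few calls, so these counts are near the background. The anaphase-promoting complex was represented by 15 genes, its core subunits and the activator Fzr1. In this list 0 were called in either direction (edgeR), and the median log2 fold change was -0.14. Anapc11 alone was lower at an adjusted p under 0.05 (log2 fold change -0.57, edgeR adjusted p = 0.0209), and 3 were lower and 0 higher at an unadjusted p under 0.05. Cohesin, which holds sister chromatids together, and its regulators were represented by 9 genes. Here 0 were called and 0 passed at an unadjusted p under 0.05 (edgeR), with a median of 0.06. Of 18 genes of the E2F, DREAM and B-Myb complexes, 0 were called (edgeR, with 3 lower and 3 higher at an unadjusted p under 0.05), with a median of 0.02. Among these Lin9, a subunit that DREAM and the B-Myb complex share, was lower (log2 fold change -0.68, adjusted p = 0.0297), whereas E2f6, a repressor of the E2F family, was higher, at 18.8, 15.5 and 18.0 FPKM in control and 36.2, 33.6 and 33.4 FPKM in GOF libraries (log2 fold change 0.96, adjusted p = 0.00178). Rb1, the retinoblastoma gene, had a fitted log2 fold change of 0.95 on fragments (adjusted p = 0.00152), although its FPKM overlapped between the groups, so its value is uncertain. Anapc11, Lin9, E2f6 and Rb1 were named after their values were seen.

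**Figure D5:**
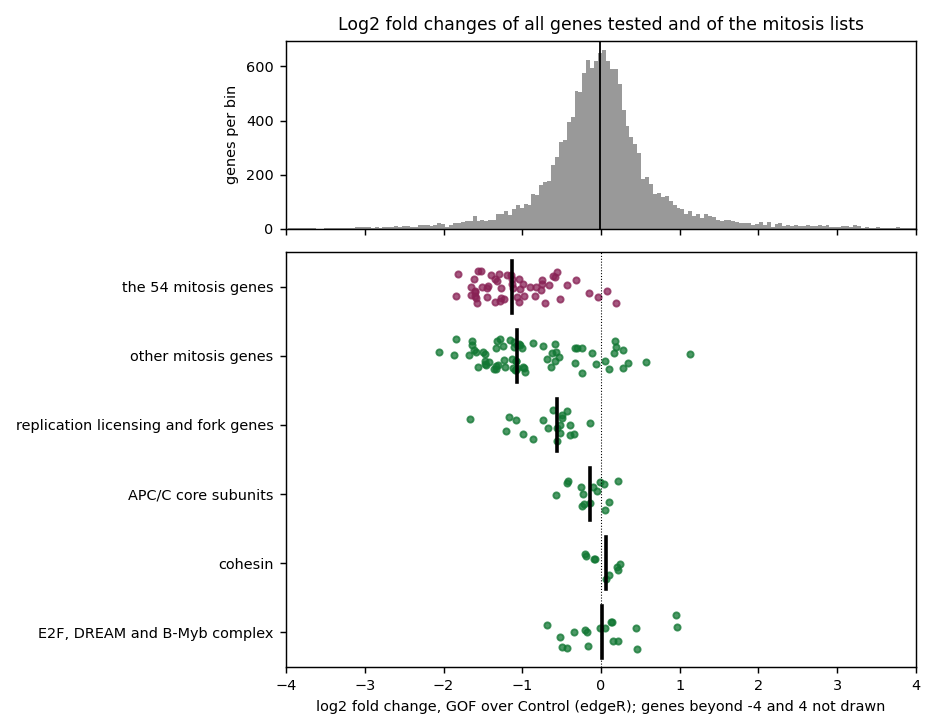
Upper panel, histogram of log2 fold changes (GOF over control, edgeR) of the 15462 genes tested, drawn between -4 and 4; lower panel, one point per gene for the 54 mitosis genes and 5 other lists, with bars at the medians. The mitosis lists have medians of -1.14 and -1.07, replication genes -0.56, and the other lists between -0.14 and 0.06.

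The cell type of the cultures was read from marker lists. Of 11 fibroblast markers, 0 were below 1 FPKM in every library, and their summed level was 3458 to 4241 FPKM in control and 2695 to 3396 FPKM in GOF libraries. Within that list Dcn, Fn1 and Col1a2 were called lower, and Vim rose at an adjusted p under 0.05. Keratinocyte markers summed to 0.50 to 0.672 FPKM in control and 2.91 to 6.83 FPKM in GOF libraries. Most of the sum in control libraries was Krt10 (0.359 to 0.426 FPKM), and most of it in GOF libraries was Dsp, a desmosomal protein at 0.0754 to 0.0811 FPKM in control and 2.39 to 6.36 FPKM in GOF libraries, with Krt5 and Krt14, which define basal keratinocytes, at or near 0 throughout. Skeletal muscle markers summed to 23.4 to 27.7 FPKM in control and 138 to 173 FPKM in GOF libraries through Acta1 (log2 fold change 2.53, adjusted p = 1.05e-04), while Myod1 was at or near 0. Adipocyte markers summed to 7.18 to 8.95 FPKM in control and 1.80 to 3.17 FPKM in GOF libraries through Fabp4, with Lep at 0. Endothelial markers summed to 2.39 to 2.56 FPKM in control and 2.53 to 5.82 FPKM in GOF libraries, so the groups overlapped. Of these 5 genes 4 were tested, and Kdr was called higher while Emcn had a fitted value below 0 (log2 fold change -0.44, edgeR adjusted p = 0.656). Of 6 macrophage markers, Csf1r was called higher and 3 had fitted values below 0. Macrophage markers summed to 13.3 to 22.7 FPKM in control and 10.3 to 28.7 FPKM in GOF libraries, with Lyz2 the largest part. Pericyte and smooth muscle markers summed to 14.01 to 24.05 FPKM in control and 16.86 to 31.58 FPKM in GOF libraries. Only Myh11 was fitted above 0 (log2 fold change 0.90, edgeR adjusted p = 0.0920). The other 4 of these 5 genes were below 0, and the median of the list was -0.53. For melanocyte and Schwann cell markers the sums were 6.83 to 6.92 and 4.87 to 6.25 FPKM. In the latter lists 5 and 4 genes were tested and 0 were called (edgeR). Each held 1 gene that was higher at an unadjusted p under 0.05. At 5.64% lower and 6.69% higher among all genes tested, so few genes would hold few calls. The part of these markers in the fall of the mitosis genes was not tested.

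Some members share sequence with other genes. On the annotation used, exons of protein-coding genes on the opposite strand cover 29.3% of the exon bases of Kif20a, 22.8% of Ube2c, 15.1% of Kif4, 13.4% of Ncapg, 12.7% of Cdc25c, 12.5% of Ccna2 and 11.1% of Prc1. Whether the counting used the strand is not given in the sources used here, so these values are uncertain to that extent. Processed copies of Ccnb1, Ccnb2 and Kif4 held at most 7.0, 101 and 0 fragments in any library. Ccnb2 itself held 682 to 1122 fragments in control and 244 to 248 in GOF libraries, so the count of its copy is not small beside it.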

How the data were processed

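Stranded, paired-end libraries were sequenced on an Illumina HiSeq, and mapping by the authors used TopHat and mm10 before Cuffdiff (versions not given in the sources used here). The deposited estimated counts are the fragments Cuffdiff assigned to each gene before scaling, and the deposited FPKM were scaled by transcript length and between libraries by the authors. A further 3 columns of per-library values, the authors' own comparison and the table of lncRNAs were not used here. Identifiers were matched to symbols through GENCODE M21 on GRCm38 (97.9% matched), and 32 genes with a failed estimate were left out. Estimated counts were not whole in 4.95% of values and were rounded.

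Fragments were tested in R 4.3.3 with edgeR 4.0.16 (TMM, filterByExpr, quasi-likelihood test, group only), with Benjamini-Hochberg adjustment over 15462 genes, and called where the fold change was over 2 and the adjusted p under 0.05. Standard errors are the log2 fold change over the root of F. FPKM and their ratios were compared by exact two-sided permutation. The script was tested on simulated data. Alternatives were DESeq2 1.42.0, limma 3.58.1 on log2(FPKM + 1) and log2(FPKM + 0.1), library totals, upper-quartile factors, other filters, replicate blocks and leaving out each library. The R package for reading files (data.table) was version 1.17.8. All 54 members are accounted for. Values per library were given by rule for the 4 members of each role with the smallest adjusted p, those not lower in GOF and those in pairs. Of the other mitosis genes, the 3 called with the smallest adjusted p were named, and of the remaining lists up to 3 called genes. The members and lists were chosen with earlier results of these data known.

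Cultures came from separate animals within a group. Label numbers did not pair the libraries (correlations of deviations from group means between same-numbered libraries were -0.42, 0.05 and -0.40), whereas cultures of the same animal correlated at 0.37 and 0.48. Depth was 35980831 to 42834467 fragments per library, and relative counting error is smaller for abundant genes.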

Additional observations from a re-analysis of the deposited data

How the results depend on the processing

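The median log2 fold change of the members ranged from -1.22 to -0.93 when single libraries were dropped, and no setting called a member higher. The count of members lower past both thresholds, 34 as reported, was 24 to 36 with a library left out (24 without Control replicate 0 and 25 without GOF replicate 0) and 18 with limma on log2(FPKM + 1). The 42 members at an adjusted p under 0.05 became 29 to 40 in those leave-one-out fits and 47 with DESeq2. Of the other mitosis genes, 4 were called lower with limma on log2(FPKM + 1), and 24 to 36 with a library left out. In that list 1 gene was called higher with DESeq2, with no filter and with the replicate block by animal, and 0 to 1 with a library left out. The fitted sign turned for Ccnf (0.0022 with limma on log2(FPKM + 1), 0.0031 on log2(FPKM + 0.1), and -0.094 to 0.056 with a library left out), for Pttg1 (-0.34 to 0.10) and for Spc25 (-0.068 to 0.37), none of which passed in any setting.

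With the replicate block by label number, 30 members were called lower and 32 passed the adjusted p, and with the replicate block by animal 35 and 40. The fit by animal leaves 1 residual degree of freedom and takes the group difference only from the 2 animals that stand in both groups. Incenp (adjusted p = 0.132) and Mybl2 (adjusted p = 0.0634, edgeR) lost significance with the animal block. The cause of these changes was not tested. Precision is limited by 3 libraries per group.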
